A study of Mus musculus with 15 samples.

Results

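The elastic fibre and microfibril genes described here are 10 genes of the extracellular matrix, Eln, Fbn1, Fbln1, Fbln2, Fbln5, Emilin1, Mfap4, Mfap5, Lox and Loxl1, chosen by name. All 10 were found among the 18073 genes of the deposited table of aortic valve expression, which gives an FPKM value (fragments per kilobase of transcript, scaled to the fragments mapped in the library) for each gene in each of 4 groups of mice. Every mouse was C57BL/6 and 2 months old, and RNA came from the 3 dissected leaflets of its aortic valve. The leaflets of all groups had been treated with collagenase for 20 minutes at 37 °C. The groups were mice with intact Notch1 and intact Terc (4 mice), Notch1 heterozygous mice with intact Terc (4 mice), mice with intact Notch1 from generation 2 of Terc-/- breeding (3 mice), and Notch1 heterozygous mice from the same generation of Terc-/- breeding (4 mice). Terc encodes the RNA template of telomerase, and in the order just given the groups are called WT-long, het-long, WT-short and het-short below. These names follow the Terc genotype, and telomere length itself was not analysed here. Which Notch1 mutant allele was used is not stated in the labels. The series asks how telomere length bears on Notch1 haploinsufficiency.

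Elastic fibres let the valve leaflet recoil after each closure. They are built from a core of elastin deposited on a scaffold of fibrillin microfibrils. Fibulins and emilins bind the core to the microfibrils, and lysyl oxidases cross-link elastin and collagen. In the aortic valve these fibres lie mainly in the layer facing the ventricle, and interstitial cells of the leaflet make them, while smooth muscle cells make those of the neighbouring aortic wall.

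Each FPKM below is the authors' value for a whole group, so the spread between mice is unknown, no value carries an error, and no difference here has a replicate check or a test. The depth of the libraries is unknown. Of the 18073 genes, 705 were listed at 0 in WT-long, 250 in het-long, 2010 in WT-short and 1181 in het-short. Log2 folds are differences of log2(FPKM + 1), a scale on which differences of low values come out too small. Leaflets are bulk tissue, in which fewer cells of a type and less RNA per cell cannot be told apart. Terc, the deleted gene, had 1.42 and 4.52 FPKM in WT-long and het-long and a listing of 0 in WT-short and het-short. Notch1 stood at 39.1 FPKM in WT-long, 25.1 in het-long, 16.6 in WT-short and 23.3 in het-short. Its level in the group labelled het-short was thus above that in WT-short, against the direction of the genotype, and the group names that follow are those of the labels.

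Elastin, the core protein, was highest in WT-long. Eln (ENSMUSG00000029675, chromosome 5) stood at 39.3 FPKM there, at 18.1 FPKM in het-long, at 26.5 FPKM in WT-short and at 28.5 FPKM in het-short. The 2 short-telomere groups differed little from each other and lay between the 2 long-telomere groups. Eln ranked above 90.7% of all genes in the first group and above 75.2% in the second, counting ties with it.

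Fibrillin 1, the main subunit of the microfibril in adult tissue, had the narrowest range of the 10 genes, with a highest value 1.57 times the lowest. Fbn1 (ENSMUSG00000027204, chromosome 2) stood at 40.7 and 35.4 FPKM in WT-long and het-long, and at 34.3 and 53.9 FPKM in WT-short and het-short. The heterozygous group with short telomeres stood apart above the other 3. In annotation of build GRCm38, 20.1% of the exonic bases of Fbn1 are shared with Gm9913 on the opposite strand, and the library kit does not keep the strand, so part of this FPKM could belong to the antisense gene.

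The microfibril-associated proteins Mfap4 and Mfap5 bind fibrillin and elastin and differed in pattern. Mfap4 (ENSMUSG00000042436, chromosome 11) was the most abundant of the 10 genes in every group, at 242 and 128 FPKM in WT-long and het-long and at 214 and 111 FPKM in WT-short and het-short. Both heterozygous groups lay below both wild type groups. Mfap5 (ENSMUSG00000030116, chromosome 6) stood at 33.9 and 25 FPKM with long telomeres and at 48.7 and 38.5 FPKM with short telomeres, in the same order of genotype. For Mfap5 both short-telomere groups lay above both long-telomere groups. Within a group, where scaling cancels, the ratio of Mfap5 to Mfap4 was 0.14 and 0.194 with long telomeres and 0.227 and 0.348 with short, wild type first.

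The fibulins split in the same way. Fbln1 (ENSMUSG00000006369, chromosome 15), which encodes a calcium-binding glycoprotein of elastic fibres and basement membranes, stood at 167 and 85.8 FPKM in WT-long and het-long and at 145 and 67 FPKM with short telomeres. As for Mfap4, both heterozygous groups lay below both wild type groups. Fbln5 (ENSMUSG00000021186, chromosome 12), whose protein brings elastin and the lysyl oxidases together on the microfibril, stood at 77 and 54.5 FPKM with long telomeres and at 116 and 98.9 FPKM with short telomeres. As for Mfap5, both short-telomere groups lay above both long-telomere groups. Fbln2 (ENSMUSG00000064080, chromosome 6), a binding partner of elastin and fibrillin, stood at 39 and 21.8 FPKM with long telomeres and at 34.9 and 32.7 FPKM with short telomeres, and only the heterozygous long-telomere group stood apart. Fbln1 was above Fbln5 in 3 groups, with a ratio of Fbln5 to Fbln1 of 0.462 in WT-long, 0.635 in het-long and 0.8 in WT-short. In het-short Fbln5 was the higher of the pair, at a ratio of 1.47.

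Because Notch receptors act on target genes through the DNA-binding protein RBPJ, the bases before the start sites of the members were searched for its core motif TGGGAA on either strand (TTCCCA on the other). RefSeq promoters of build GRCm38.p6 were at hand for 5 of the 10 genes, with 7 start sites, and not for Eln, Mfap4, Mfap5, Lox and Loxl1. The motif was in the 250 bases before 3 of these 7 starts, 1 each for Fbn1, Fbln1 and Fbln5, and in 21.6% of 32851 such windows of all genes. It was not in the windows of Fbln2 and Emilin1, nor in those of the other start site of Fbln1 and of Fbln5. The 2 windows of Fbln1 share 191 bases, and the later one begins past the match, so they are not separate sequences. Another 3 motifs were searched in the same windows on both strands. The GC box GGGCGG was in 4 of the 7 windows (32.7% of all windows) and the E box CANNTG in 5 of 7 (66.2%). The TATA box TATAAA was in 0 of 7 (12.4%). Of these matches 1 overlapped an RBPJ match, an E box in the window of Fbln5 that shares its first bases with the end of TTCCCA. The match began 247 bases before the start of Fbln1, 153 bases before that of Fbln5 and 19 bases before that of Fbn1. The 3 sequences are shown because these genes differ in how they followed the Notch1 genotype: Fbln1 was low in both heterozygous groups, Fbln5 was ordered by telomere group and Fbn1 varied least. They run 5′ to 3′ along the strand of the gene and end at the base before the start, with the match in capitals. Fbln1 lies at chr15:85205699-85205948 on the plus strand, Fbln5 at chr12:101819120-101819369 on the minus strand and Fbn1 at chr2:125506439-125506688 on the minus strand. A match describes the letters and is not evidence of binding.
Fbln1: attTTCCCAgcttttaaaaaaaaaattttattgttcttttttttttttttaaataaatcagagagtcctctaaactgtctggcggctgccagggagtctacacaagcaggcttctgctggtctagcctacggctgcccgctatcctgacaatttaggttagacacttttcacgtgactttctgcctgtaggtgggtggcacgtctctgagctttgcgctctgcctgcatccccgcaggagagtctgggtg
Fbln5: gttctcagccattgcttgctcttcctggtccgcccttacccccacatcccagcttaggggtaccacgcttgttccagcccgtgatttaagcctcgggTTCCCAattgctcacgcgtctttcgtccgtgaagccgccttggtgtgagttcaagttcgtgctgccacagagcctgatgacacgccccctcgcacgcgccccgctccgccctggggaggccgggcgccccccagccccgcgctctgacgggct
Fbn1: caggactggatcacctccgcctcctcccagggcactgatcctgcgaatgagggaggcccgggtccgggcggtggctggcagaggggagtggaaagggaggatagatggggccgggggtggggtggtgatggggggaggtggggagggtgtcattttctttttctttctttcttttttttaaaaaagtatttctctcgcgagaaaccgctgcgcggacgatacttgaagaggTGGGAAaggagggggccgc

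Emilin1 (ENSMUSG00000029163, chromosome 5) encodes a glycoprotein at the interface of elastin and microfibrils that also restrains the maturation of TGF-beta. It stood at 32 FPKM in WT-long, at 15.8 FPKM in het-long, and at 12.7 and 13.3 FPKM in WT-short and het-short. The wild type group with long telomeres stood apart above the other 3, which lay close together.

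The lysyl oxidases differed from each other in pattern. Lox (ENSMUSG00000024529), which starts the cross-linking of elastin and collagen, stood at 7.98 and 2.03 FPKM in WT-long and het-long, and at 4.45 and 19.4 FPKM in WT-short and het-short, a range of 9.58-fold. It was lowest of the 10 genes in 3 groups and ranked above Emilin1 only in het-short. Loxl1 (ENSMUSG00000032334, chromosome 9), which is needed to maintain elastic fibres in adult tissue, stood at 44.2 and 20.9 FPKM with long telomeres and at 29.9 and 19.6 FPKM with short telomeres, with both heterozygous groups below both wild type groups. The ratio of Lox to Loxl1 was 0.18 and 0.0972 with long telomeres and 0.149 in WT-short, against 0.992 in het-short.

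**Figure D1:**
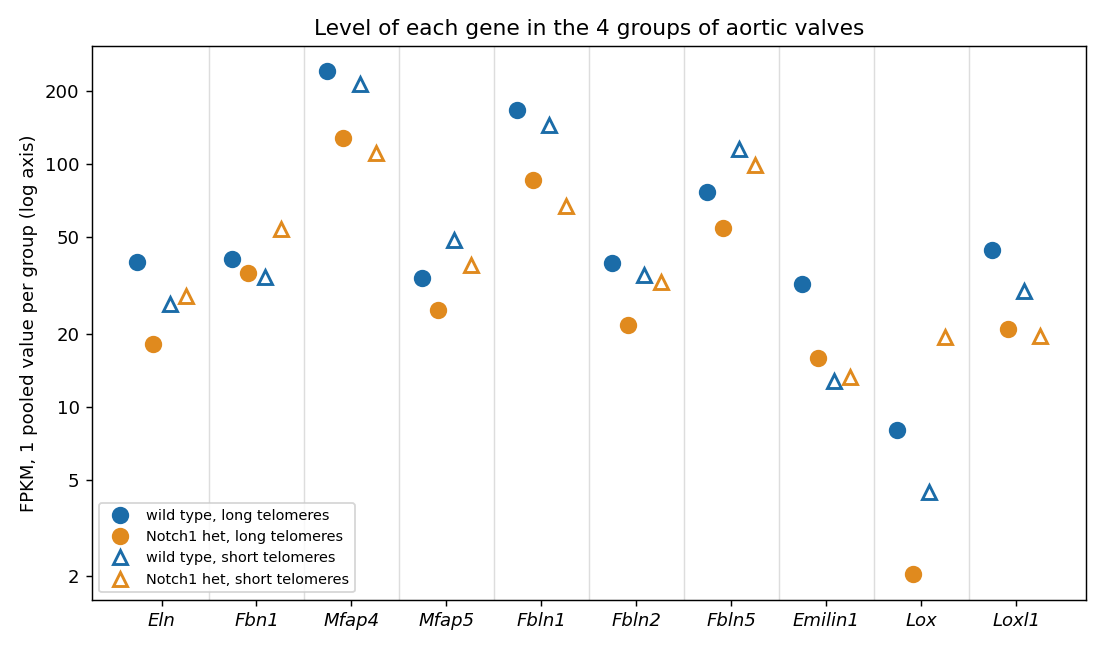
FPKM of the 10 genes (log axis), 1 point per group: blue for wild type and orange for Notch1 heterozygous valves, filled circles for long and open triangles for short telomeres. Mfap4 is highest in every group, from 111 to 242 FPKM, and Lox spans the widest range, from 2.03 to 19.4 FPKM.

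**Figure D2:**
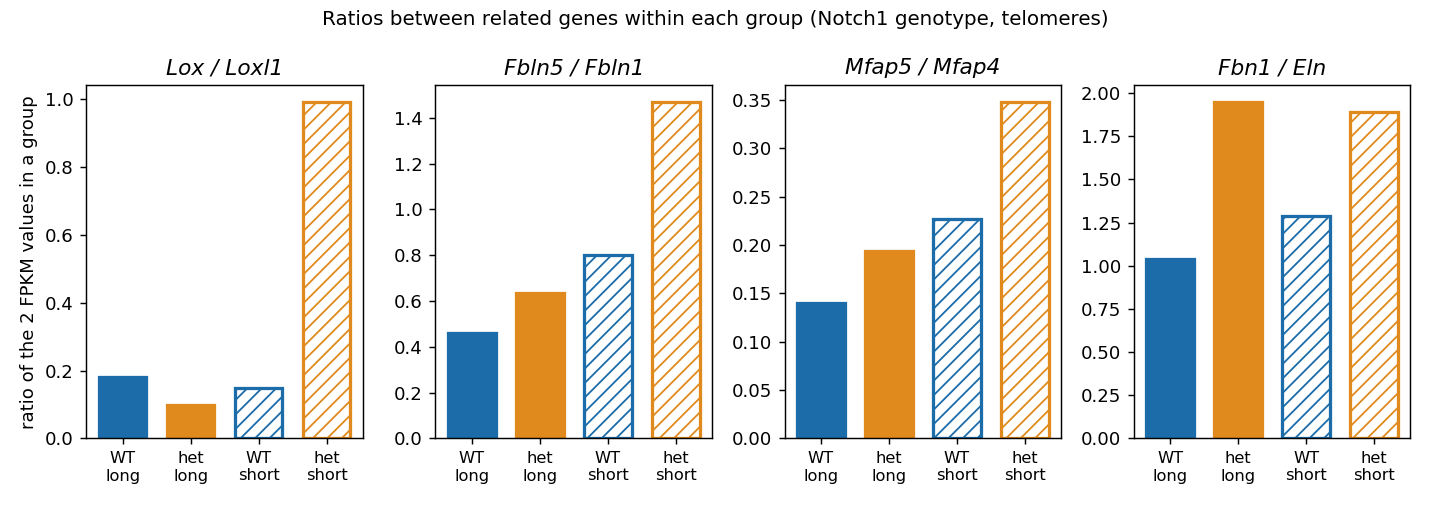
Ratio of the FPKM values of 2 related genes within each group, 1 bar per group without an error since there is 1 value per group; blue is wild type, orange Notch1 heterozygous, and hatched bars are short telomeres. Lox to Loxl1 is 0.992 and Fbln5 to Fbln1 is 1.47 in het-short, the highest bar of those panels, whereas Fbn1 to Eln is higher in both heterozygous groups (1.95 and 1.89) than in the wild type groups (1.04 and 1.29).

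With long telomeres, all 10 genes were lower in Notch1 heterozygous than in wild type valves. The log2 folds ran from -1.57 for Lox to -0.20 for Fbn1, with a median of -0.93 beside 0.09 for all genes, of which 43.6% were lower. Eln (-1.08), Loxl1 (-1.05), Emilin1 (-0.97), Fbln1 (-0.95), Mfap4 (-0.91) and Fbln2 (-0.81) lay close together, at ratios of wild type to heterozygous between 1.79 and 2.17. Mfap5 (-0.43) and Fbln5 (-0.49) differed less. None of the 10 genes was called different in the authors' deposited table, in which 0.415% of all genes were called in this comparison, with a smallest ratio among called genes of 4.67. Lox came nearest to that ratio, at 3.94. A ratio of at least 4 on the FPKM + 1 scale was reached by 3.96% of all genes and by none of the members. In the same comparison 12 of 12 smooth muscle markers were lower, with sums of 1341 and 308 FPKM and none at 0 in either group, and their part in the lower values of the 10 genes was not tested.

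With short telomeres, the same genotype comparison divided the genes. Fbln1 (-1.10), Mfap4 (-0.94) and Loxl1 (-0.59) were lower in heterozygous than in wild type valves, as were Mfap5 (-0.33), Fbln5 (-0.23) and Fbln2 (-0.09) by smaller amounts. Lox (1.91) and Fbn1 (0.64) were higher, and Eln (0.10) and Emilin1 (0.06) were nearly level. In all 6 genes were lower and 4 higher, with a median of -0.16 beside 0.06 for all genes, of which 42.6% were lower. None was called in the authors' deposited table, where 0.476% of all genes were, although Lox had a ratio of 4.36 and the smallest ratio among called genes was 4.3. On the FPKM + 1 scale 5.63% of all genes and none of the members reached a ratio of 4.

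The 2 genotype comparisons have no group in common, so their difference could be read gene by gene, without a test. The log2 fold in the short-telomere setting minus that in the long-telomere setting was 3.47 for Lox, a value above that of 99.4% of all genes. Lox is the only member with a mean under 10 FPKM, and the value draws on 2.03 FPKM in het-long. The same difference was 1.17 for Eln, 1.03 for Emilin1, 0.83 for Fbn1 and 0.72 for Fbln2. For Mfap4 (-0.04), Mfap5 (0.10), Fbln1 (-0.15) and Fbln5 (0.26) the fold was much the same in both settings, and for Loxl1 the difference was 0.46. The median of the 10 genes was 0.59, beside 0.00 for all genes.

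**Figure D3:**
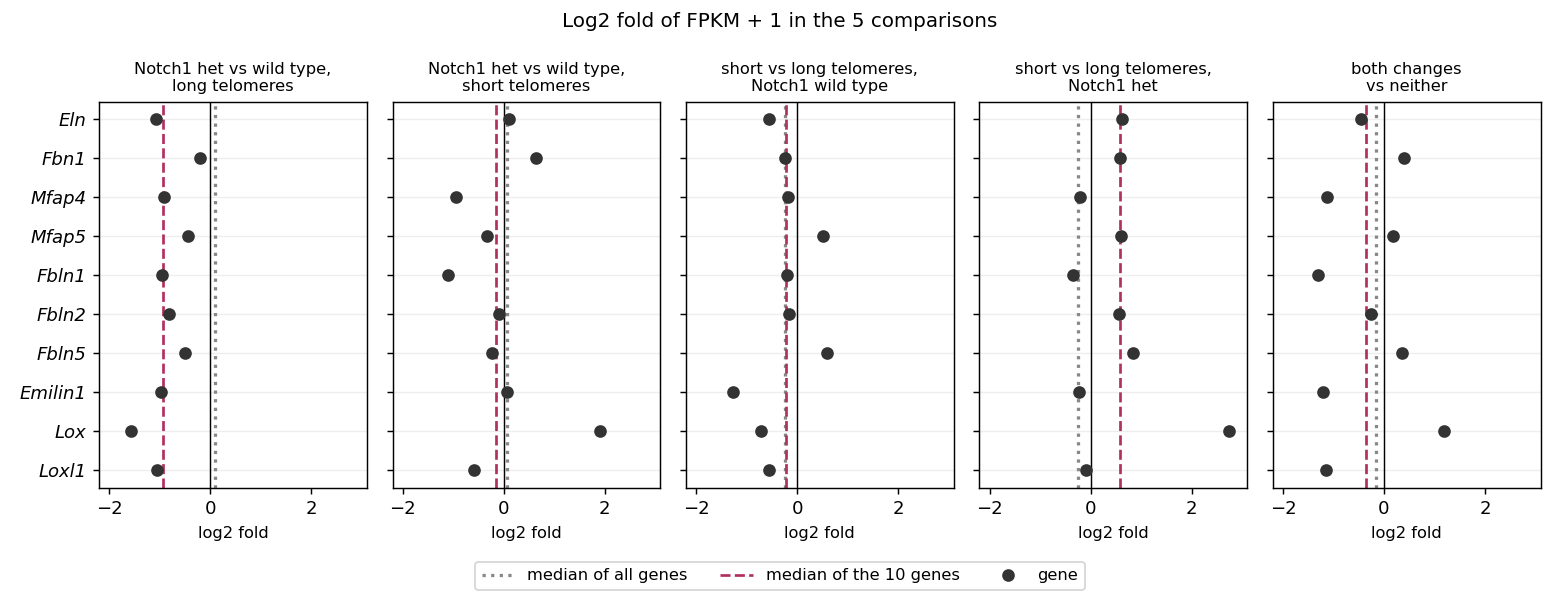
Log2 fold of FPKM + 1 of each of the 10 genes (dots) in the 5 comparisons, with the median of the 10 genes (dashed red line) and of all genes (dotted grey line). In the first panel all 10 dots lie left of 0 with a median of -0.93, and in the fourth panel Lox lies farthest right at 2.75.

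**Figure D4:**
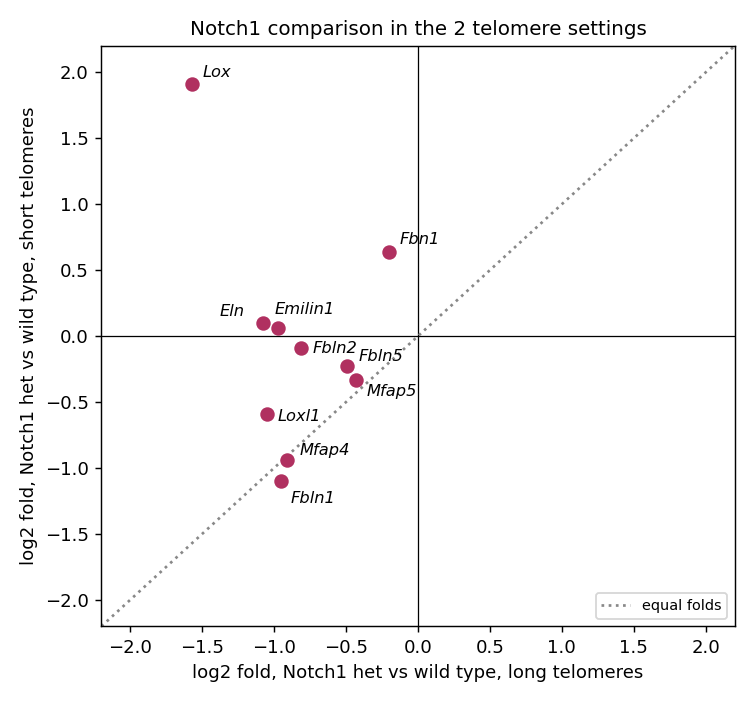
Log2 fold of Notch1 heterozygous against wild type valves with long telomeres (horizontal axis) and with short telomeres (vertical axis), 1 point per gene; the dotted line marks equal folds. Fbln1 and Mfap4 lie near the line, and Lox lies farthest from it, at -1.57 and 1.91.

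Between WT-short and WT-long, Emilin1, Lox, Eln and Loxl1 were lower and Fbln5 and Mfap5 higher in WT-short. All genes together had a median of -0.23 in this comparison, so folds are given here relative to it. Among genes with a mean of at least 10 FPKM that median was -0.07. Relative to all genes Emilin1 stood at -1.03, Lox at -0.49, and Eln and Loxl1 at -0.32, whereas Fbln5 stood at 0.82 and Mfap5 at 0.74. Fbn1 (-0.01), Fbln1 (0.03), Mfap4 (0.06) and Fbln2 (0.08) followed the median gene, and the last 3 of these were below 0 as deposited, at -0.20, -0.17 and -0.15. As deposited 8 of the 10 genes were lower with a median of -0.22, beside 61.1% of all genes lower. Relative to all genes 5 were lower and 5 higher with a median of 0.01. Relative to genes with a mean of at least 10 FPKM 8 were lower again, with a median of -0.15. None was called in the authors' deposited table, in which 0.686% of all genes were, and none reached a ratio of 4 on the FPKM + 1 scale, which 7.49% of all genes did. The share of the FPKM sum taken by mitochondrially encoded genes was 14.4% in the long-telomere and 32.5% in the short-telomere group. Scaled without these genes, the median of the 10 genes was -0.32 and 8 were lower. The part of the mitochondrial share in these differences was not tested.

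Between het-short and het-long, 6 of the 10 genes were higher in het-short (Lox, Fbln5, Eln, Mfap5, Fbn1 and Fbln2) and 4 were lower, as deposited and relative to genes with a mean of at least 10 FPKM (median -0.08). Relative to the median fold of all genes (-0.24), 9 of the 10 were higher. Lox stood at 2.99, Fbln5 at 1.09, Eln at 0.86, Mfap5 at 0.85, Fbn1 at 0.83 and Fbln2 at 0.81. Loxl1 (0.15), Mfap4 (0.03) and Emilin1 (0.01) were close to the median gene and below 0 as deposited (-0.09, -0.21 and -0.23), and Fbln1 (-0.11) was below it. The median of the 10 genes was 0.58 as deposited, and 64.9% of all genes were lower. None was called in the authors' deposited table, against 0.432% of all genes, and the smallest ratio among called genes was 4.79. Lox had a ratio of 9.58, from 2.03 to 19.4 FPKM, without a call, and was the only member to reach a ratio of 4 on the FPKM + 1 scale, as 5.35% of all genes did. Mitochondrially encoded genes took 10% of the FPKM sum with long and 35% with short telomeres. The heterozygous long-telomere group is the reference here and the group compared in the first comparison, so that a low value in it enters both.

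With both changes against neither, the genes were divided as well. Relative to the median of all genes (-0.16), Fbln1 (-1.15), Emilin1 (-1.05), Loxl1 (-0.98) and Mfap4 (-0.96) were lower, and Eln (-0.30) and Fbln2 (-0.09) less so. Lox (1.34), Fbn1 (0.55), Fbln5 (0.51) and Mfap5 (0.34) were higher. The median of the 10 genes was -0.35 as deposited, with 6 lower and 4 higher, beside 58.2% of all genes lower. None was called in the authors' deposited table, against 0.526% of all genes, and none reached a ratio of 4 on the FPKM + 1 scale, which 5.27% of all genes did. This comparison shares its wild type long-telomere reference with 2 of the others.

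The sum of the 10 FPKM values was 723 and 408 FPKM in WT-long and het-long, and 667 and 483 FPKM in WT-short and het-short. Its makeup also differed. Mfap4 and Fbln1 took 33.4% and 23.1% of the sum in WT-long, and 23% and 13.9% in het-short. Fbln5 took 10.7% in the first of these groups and 20.5% in the second, Fbn1 took 5.64% and 11.2%, and Lox took 1.1% and 4.02%. The share of Eln was 5.44% and 5.9%.

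Pairs of genes with a like course over the 4 groups were found by the distance between their log2(FPKM + 1) values, each centred on its own mean. Of the 45 pairs the closest were Fbln1 with Mfap4 (distance 0.14), Fbln5 with Mfap5 (0.18) and Eln with Fbln2 (0.29). Loxl1 was close to Mfap4 (0.30) and Fbln1 (0.37), and the pair farthest apart was Fbln1 with Lox (2.53). Among 6843 genes with a mean of at least 10 FPKM, those nearest to Eln were Bace2 (0.033), Dock9 (0.045), Cdc42ep1 (0.081), Ntn1 (0.092) and Tgfb1i1 (0.115), over 4 values each. Bace2, for example, stood at 55.8 and 25.6 FPKM with long and at 38.5 and 40.2 FPKM with short telomeres. Fbln2 came 35th in that order and Loxl1 515th, and the other members with such a mean came between rank 1061 (Fbn1) and rank 1960 (Fbln1). With 4 values a near match among 6843 genes is easily found, and the order is a description. Lox has a mean under 10 FPKM and was not ranked.

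A wider list of 28 genes, chosen around elastic fibre assembly, was also low in the heterozygous long-telomere group. Of these genes 25 were lower there than in wild type valves, with a median log2 fold of -0.80 as deposited. The authors' deposited table called 1 of them lower: Mmrn1, which encodes a multimerin of platelets and endothelium, at 0.995 against 23.3 FPKM. In the same comparison 9 of 9 platelet markers were called lower, with sums of 3183 and 124 FPKM. The part of platelets in the Mmrn1 value was not tested. Ltbp4, which binds fibulins and latent TGF-beta, stood at 224 and 106 FPKM with long telomeres and at 171 and 109 FPKM with short telomeres, wild type first. Efemp2, the fibulin 4 gene that elastic fibres cannot form without, stood at 37 and 25 FPKM with long and at 35.8 and 16.9 FPKM with short telomeres. Loxl2, another lysyl oxidase, stood at 60.3 and 35.6 FPKM with long and at 55.9 and 38.4 FPKM with short telomeres. These 3 genes followed the genotype in both settings, as Fbln1, Mfap4 and Loxl1 did.

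Mfap2 and Adamts10 were lower in both short-telomere groups than in both long-telomere groups. Mfap2, a partner of Mfap5 on fibrillin, stood at 55.2 and 31.9 FPKM with long and at 14.9 and 16.2 FPKM with short telomeres, opposite in direction to Mfap5, and the ratio of Mfap5 to Mfap2 was 0.614 and 0.781 with long and 3.27 and 2.37 with short telomeres. Adamts10, a protease-like protein that promotes fibrillin 1 microfibrils, stood at 48.6 and 15.7 FPKM with long telomeres and at 7.29 and 10 FPKM with short telomeres. Fbn2, the fibrillin of developing tissue, stood at 4.12 and 1.02 FPKM with long and at 0.257 and 1.45 FPKM with short telomeres, levels far below Fbn1. In wild type valves 21 of the 28 genes were lower with short telomeres (median -0.50 relative to all genes), beside 61.1% of all genes. Of the 28, 1 was called lower, Adamts17, at 4.82 FPKM in WT-long and a listing at 0 in WT-short, where 2010 of all genes were at 0. In heterozygous valves 15 were lower as deposited and 10 relative to all genes, with medians of -0.06 and 0.18 and none called. Between genotypes with short telomeres 15 of 28 were lower (median -0.12 relative to all genes, none called). With both changes against neither 20 of 28 were (median -0.72 relative to all genes, none called).

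Of the proteases able to cut elastin 7 were measured. Ctss, cathepsin S of macrophages, stood at 94.1 and 163 FPKM with long and at 161 and 248 FPKM with short telomeres (wild type first). All 7 were higher with short than with long telomeres in wild type valves (median 0.62 relative to all genes), and 1 was called higher in the authors' deposited table, the gelatinase gene Mmp9 (0.0905 and 9.44 FPKM). Elane, the elastase of neutrophils, was listed at 0 in 3 groups and at 10.4 FPKM in WT-short, where the 8 neutrophil markers summed to 1767 FPKM against 16.4, 45.4 and 167 FPKM elsewhere. The part of neutrophils in these protease values was not tested. In the other comparisons none of these 7 was called. Relative to all genes their medians were -0.02 for het-long against WT-long, -0.49 for het-short against WT-short, 0.62 for short telomeres in heterozygous valves and 0.61 for both changes.

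Fibrillar collagens, which share lysyl oxidases with elastin, were 6 of 6 lower in het-long and 6 of 6 lower with short telomeres in wild type valves, with none called. Relative to all genes the medians were -0.72 and -0.74. Col11a1, counted among the 6, stood at only 0.87, 0.482, 0.237 and 1.21 FPKM in WT-long, het-long, WT-short and het-short. Col1a1, a chain of collagen I, stood at 199 and 105 FPKM with long and at 61.3 and 79.5 FPKM with short telomeres. The ratio of Eln to Col1a1 was 0.198 and 0.172 with long and 0.433 and 0.358 with short telomeres. With short telomeres all 6 collagens were higher in heterozygous than in wild type valves (median 0.32 relative to all genes), where Fbln1 and Mfap4 were lower. For short telomeres in heterozygous valves 3 of 6 were higher as deposited and 4 of 6 stood above the median gene (0.24), and for both changes 5 of 6 stood below it (-0.47).

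Markers of cells that make elastic fibres differed in course. The 12 markers of smooth muscle, none at 0, summed to 1341 and 308 FPKM in WT-long and het-long and to 662 and 526 FPKM with short telomeres. All 12 were lower in the heterozygous long-telomere group (median -2.16), and 5 of them were called lower in the authors' deposited table, among them Myh11 (83.6 and 4.55 FPKM), the myosin heavy chain of smooth muscle. The 12 markers of valve interstitial cells and fibroblasts, none at 0, summed to 5704 and 5100 FPKM with long and to 8212 and 6124 FPKM with short telomeres, and 10 of 12 were lower in the heterozygous long-telomere group with a median of -0.26. Decorin (Dcn), at 2692, 2255, 4698 and 3188 FPKM, carried much of these sums, which without it were 3011 and 2845 FPKM with long and 3514 and 2936 FPKM with short telomeres. The mean log2(FPKM + 1) of the 12 was 6.89 and 6.66 with long and 6.80 and 6.79 with short telomeres, and 7 of 12 were lower with both changes against neither (median -0.08). Of these 12, Tcf21 was called in the authors' deposited table in both comparisons with WT-short (1.01 FPKM there and 26.2, 12.3 and 20.1 FPKM in WT-long, het-long and het-short). Thy1, 1 of the 2 markers higher in het-long than in WT-long, stood at 43, 216, 32.1 and 24.3 FPKM in WT-long, het-long, WT-short and het-short. The sum of 9 T cell markers, which include the immature thymocyte genes Rag1 and Dntt, was also highest in het-long, at 1246 FPKM. The part of T cells or thymocytes in the Thy1 value was not tested. Between het-long and WT-long the median of the elastic fibre genes, -0.93, lay between those of the lists of smooth muscle and fibroblasts. The ratio of Eln to Acta2, the smooth muscle actin gene, was 0.0797 and 0.175 with long and 0.105 and 0.123 with short telomeres. The part of fibroblast content in the differences between groups was not tested.

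Other cell types moved between the groups as well. Mesothelial markers (8 genes, none at 0) summed to 56.2 and 17.6 FPKM with long and to 26.4 and 9.99 FPKM with short telomeres, lower in both heterozygous groups as Fbln1, Mfap4 and Loxl1 were. Of these 8 markers, 7 were lower in heterozygous valves with long telomeres and 8 with short telomeres. Endothelial markers (10 genes, none at 0) summed to 347 and 288 FPKM with long and to 464 and 577 FPKM with short telomeres, higher in both short-telomere groups as Fbln5 and Mfap5 were. Of these 10 markers, 8 were higher with short telomeres in wild type valves and 10 in heterozygous valves. Vwf followed the genotype instead, at 23.7 and 5.17 FPKM with long and at 24.2 and 6.21 FPKM with short telomeres. The endothelial sum was highest in het-short, whereas Fbln5 and Mfap5 were highest in WT-short. The fibroblast sum given above was also higher in both short-telomere groups and highest in WT-short. Without Dcn it was not higher in both. Macrophage markers (7 genes) summed to 518 and 647 FPKM with long and to 419 and 1009 FPKM with short telomeres, highest in the same group as Lox. In each comparison with het-short 6 of these 7 were higher there. Csf1r was lowest there, at 47.8 and 44.9 FPKM with long and at 46.3 and 41.6 FPKM with short telomeres. T cell markers (9 genes) summed to 131 and 1246 FPKM with long and to 177 and 19.7 FPKM with short telomeres. Among them, the immature thymocyte genes Rag1 and Dntt stood at 138 and 139 FPKM in het-long. In WT-long, WT-short and het-short Rag1 stood at 13.1, 11.5 and 2.01 FPKM, and Dntt at 10.9, 10.3 and 0.198 FPKM. The source of this RNA was not tested. Platelet markers (9 genes) summed to 3183, 124, 2057 and 404 FPKM in WT-long, het-long, WT-short and het-short. Cardiomyocyte markers (10 genes) summed to 3514, 5039, 4261 and 6283 FPKM, and melanocyte markers (4 genes) to 138, 156, 87.8 and 27.4 FPKM. Their part in the differences of the 10 genes was not tested.

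**Figure D5:**
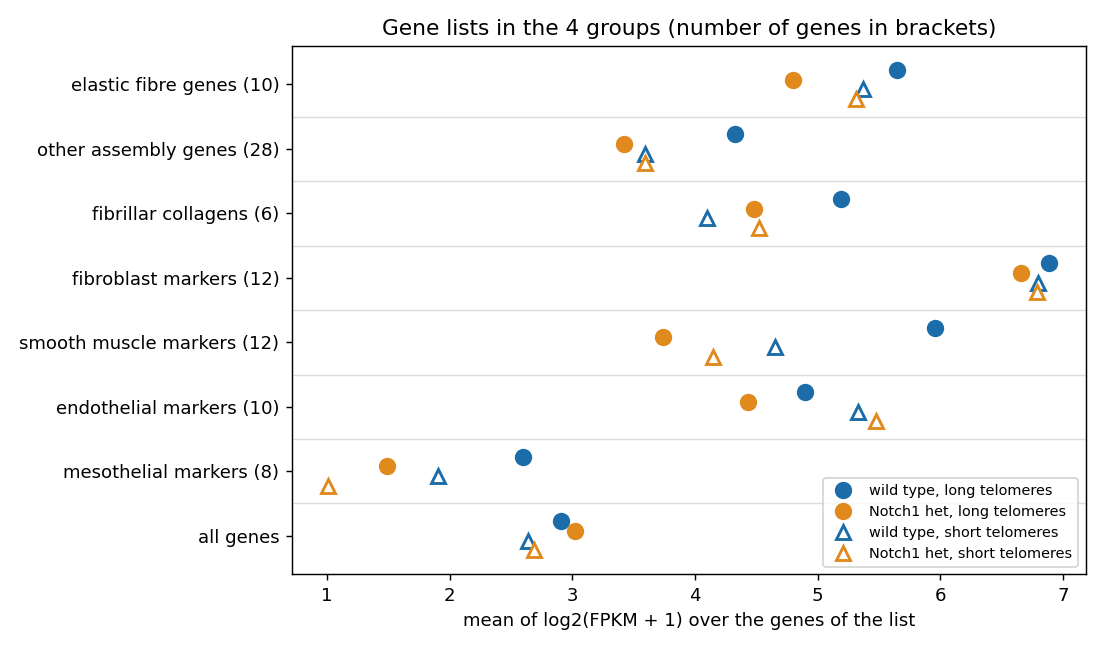
Mean log2(FPKM + 1) of the 10 elastic fibre genes, of companion lists and of all genes in the 4 groups, with colours for the Notch1 genotype and filled circles or open triangles for long or short telomeres. The elastic fibre genes are at 5.65 and 4.80 with long and 5.37 and 5.31 with short telomeres, and smooth muscle markers at 5.96 and 3.74 with long and 4.65 and 4.15 with short telomeres, both lowest in het-long.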

How the data were processed

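RNA from the aortic valve leaflets of 15 mice was sequenced after the leaflets were treated with collagenase for 20 minutes at 37 °C, per the labels' protocols. Complementary DNA was amplified with a NuGen Ovation kit that does not keep the strand, and paired reads of 100 bp were made, per the labels' protocols. Per the submitters' processing notes the tools included FastQC, TopHat, SAMtools and Picard, and the build was mm9; versions, roles, the read depth and the way the values were computed are not given in the sources used.

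Per the file headers, the deposited table has an FPKM column for each group (1 value a gene) and 5 columns of other values, 0 or 1, read as their calls. Columns 8 and 9 share a header in the deposited table and were assigned to the pair of groups in which every called gene had a ratio of at least 4. Since values per mouse were not used here, no test was run. Log2 folds used a pseudocount of 1 FPKM, and tracing of calls and medians was tested on simulated data. The simulated calls were drawn only from genes with a large fold in the true pair. The simulation therefore checks that the code runs and cannot check the assignment of columns 8 and 9. Mitochondrial genes (24) were found by identifier in GENCODE annotation of GRCm38. The members, the 13 companion lists and the naming rule (all 10 members; Fbn2, Mfap2, Efemp2, Ltbp4 and Loxl2; at most 4 genes a list, those with the largest absolute folds; the 5 genes nearest to Eln) were chosen with earlier results of these data known. Ratios between genes and promoter motifs were outside this rule and were chosen after values were seen. Alternatives were a pseudocount of 0.1 FPKM, scaling to the median gene, scaling without mitochondrial genes, a mean of at least 10 FPKM, a 4-fold rule and, chosen after seeing the data, scaling to the median of genes with such a mean. Scripts ran on Python 3.11.15 with pandas 2.3.3, numpy 2.4.6 and, for figures, matplotlib 3.10.9.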

Additional observations from a re-analysis of the deposited data

How the results depend on the processing

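No value has a replicate check. No paired analysis was possible because the table holds 1 value per group, and the replicate block and leaving out replicates were not run for the same reason. In the order Notch1 genotype with long and with short telomeres, short telomeres in wild type and in heterozygous valves, and both changes, the median log2 folds of the 10 genes, -0.93, -0.16, -0.22, 0.58 and -0.35 as deposited, were -1.02, -0.22, 0.01, 0.82 and -0.19 relative to the median gene, so that the third turned. Relative to the median of genes with a mean of at least 10 FPKM, a setting chosen after seeing the data, they were -1.02, -0.21, -0.15, 0.66 and -0.34, with as many members lower as in the deposited values. Scaled without mitochondrial genes they were -0.96, -0.13, -0.32, 0.55 and -0.41. Without Lox, the member under a mean of 10 FPKM, they were -0.91, -0.23, -0.20, 0.57 and -0.45. A pseudocount of 0.1 FPKM gave 0.59 and -0.36 for the last 2. Relative to the median gene, 5 members in place of 8 were lower with short telomeres in wild type valves and 1 in place of 4 in heterozygous valves. The 4-fold rule on FPKM + 1 counted 1 member, Lox, in the fourth comparison where the authors called 0. Of 50 folds of single members, 6 changed sign relative to the median gene, all between telomere groups (Fbln1, Fbln2 and Mfap4 in wild type, Emilin1, Mfap4 and Loxl1 in heterozygous valves), and 0 with the other pseudocount, without mitochondrial genes or relative to genes with a mean of at least 10 FPKM.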
